A study of Mus musculus with 12 samples.

Results

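Gbp5, Irf1, Irgm2 and Socs1, which belong to the response to interferon gamma, were followed in A20 tumors that had been injected with GLA-SE (GLA, an agonist of TLR4, formulated in a stable emulsion), with the emulsion alone (SE) or with PBS. They are 4 of the 770 genes of an nCounter immune panel for mouse tumors, in which barcoded probes are counted gene by gene without amplification. They were picked by symbol, with measured values of the same tumors known, so their differences between groups are given as descriptions without a p value. In the GLA-SE tumors the mean of each of the 4 genes was 2.28 to 5.46 times that of the PBS tumors, and no GLA-SE tumor overlapped a PBS or an SE tumor. Of the 750 panel genes that are not reference genes, 63.7% were likewise higher without overlap against PBS and 14.7% against SE. For each gene the SE tumors overlapped the PBS tumors. These levels are counts scaled to 16 reference genes, and part of the difference depends on that scale.

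All 12 tumors grew from A20, a BALB/c B-cell lymphoma line, after cells had been placed under the skin of female Balb/c mice. Treatment began about 7 days later, and every mouse received 3 injections into the tumor on alternate days and was sampled 2 h after the last. The 4 GLA-SE mice received 10 µg of GLA in 50 µl of 2% SE, the 4 SE mice received SE without GLA, and the 4 PBS mice served as controls. Each tumor came from a different mouse and was measured once. A bulk tumor holds lymphoma cells together with host cells, so fewer cells of a type and less RNA per cell cannot be told apart in any value below. The 6 B-cell markers (Ms4a1, Cd79a, Cd79b, Pax5, Blk and Cd22) were counted in all 12 tumors, with a summed scaled count of 11506 to 19643.

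Interferon gamma is made mainly by T cells and NK cells, and interleukin 12 and interleukin 18 from myeloid cells are among the signals that start its transcription. It binds a receptor whose JAK1 and JAK2 kinases start a signal that ends at GAS elements in the promoters of its target genes. Irf1 encodes a transcription factor that is among the early targets and itself acts on ISRE-type elements of later ones. Gbp5 encodes a guanylate-binding protein and Irgm2 an immunity-related GTPase, both of which act in the defense of a cell against intracellular pathogens. Socs1 encodes an inhibitor of JAK kinases that limits the same pathway. Several of these genes also respond to type I interferon and to NF-kB, both of which lie downstream of TLR4.

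The promoter sequences of the 4 genes are shown because the counts below concern transcripts whose starts they flank. Each line holds the 250 bases before the annotated transcription start, 5′ to 3′ on the strand of the gene, from RefSeq on build GRCm38.p6 of the C57BL/6J reference, so that BALB/c differences are not represented. Capitals mark matches to a GAS motif (TTCNNNGAA) or to an ISRE-type motif (GAAANNGAAA) on either strand. The windows are chr3:142496684-142496933 on the plus strand for Gbp5, chr11:53769764-53770013 on the plus strand for Irf1, chr11:58214727-58214976 on the plus strand for Irgm2 and chr16:10785537-10785786 on the minus strand for Socs1.
Gbp5: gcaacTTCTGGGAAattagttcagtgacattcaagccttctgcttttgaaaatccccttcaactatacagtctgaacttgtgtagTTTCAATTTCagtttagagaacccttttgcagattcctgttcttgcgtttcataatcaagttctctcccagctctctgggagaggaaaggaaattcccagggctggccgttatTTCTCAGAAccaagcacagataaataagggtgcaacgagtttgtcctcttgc
Irf1: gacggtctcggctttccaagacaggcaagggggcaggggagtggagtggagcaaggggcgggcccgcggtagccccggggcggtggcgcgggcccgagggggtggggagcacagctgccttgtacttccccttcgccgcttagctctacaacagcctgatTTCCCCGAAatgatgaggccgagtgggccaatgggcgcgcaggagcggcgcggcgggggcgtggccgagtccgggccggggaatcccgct
Irgm2: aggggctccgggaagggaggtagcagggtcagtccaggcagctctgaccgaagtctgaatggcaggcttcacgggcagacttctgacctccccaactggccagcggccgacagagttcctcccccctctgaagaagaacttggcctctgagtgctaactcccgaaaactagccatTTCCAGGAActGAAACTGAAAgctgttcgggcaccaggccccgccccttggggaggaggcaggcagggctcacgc
Socs1: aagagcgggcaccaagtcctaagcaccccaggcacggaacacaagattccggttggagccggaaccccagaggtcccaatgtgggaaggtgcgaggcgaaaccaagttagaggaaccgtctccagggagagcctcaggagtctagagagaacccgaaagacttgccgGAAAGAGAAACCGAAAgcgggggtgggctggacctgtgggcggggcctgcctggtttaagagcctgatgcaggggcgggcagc
The Gbp5 window holds 2 GAS matches, at -245 to -237 and at -52 to -44 from the start, and an ISRE-type match on the opposite strand at -165 to -156. In the Irf1 window there is 1 GAS match, at -90 to -82. In the Irgm2 window a GAS match at -75 to -67 is followed by an ISRE-type match at -64 to -55. The Socs1 window holds 2 overlapping ISRE-type matches, at -83 to -74 and -77 to -68, and no GAS match. A search for the kappaB motif, which shares no position with these matches, found it in the Gbp5 window on the opposite strand at -77 to -68 and in the Irf1 window at -13 to -4. A second annotated start of Irf1, with the window chr11:53770223-53770472, has no match to any of these motifs. Among 32851 mouse promoter windows of the same length, 7.02% hold a GAS match, 2.98% an ISRE-type match and 7.25% a kappaB match, and among the 695 windows of panel genes the shares are 10.8%, 6.62% and 12.9%. A match is a run of letters and was not tested as a binding site here.

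Summed over the panel, a PBS tumor gave 812522 to 1086462 counts, against 810260 to 1268512 for an SE tumor and 1186487 to 1612415 for a GLA-SE tumor. The geometric mean of the 16 reference genes ran the other way, from 1972 to 2558 in the PBS tumors against 1693 to 1932 in the GLA-SE tumors. SE replicate 4 stood apart with a reference mean of 927, so its counts are multiplied most by the scaling, and the median coefficient of variation over the panel was 54.3% in the SE group against 14.3% in the PBS group and 22.9% in the GLA-SE group. On the reference scale the median gene of the panel was 0.90 log2 higher in GLA-SE than in PBS tumors, and each difference of the 4 genes is therefore also given relative to this panel median.

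Gbp5 showed the widest separation of the groups. Its scaled counts were 326, 209, 243 and 316 in PBS replicates 1 to 4, and 378, 277, 365 and 504 in SE replicates 1 to 4. In GLA-SE replicates 1 to 4 they were 915, 1486, 2474 and 1111. The lowest GLA-SE tumor was thus above the highest SE tumor, which was replicate 4, and the SE and PBS tumors overlapped. The means were 274 ± 56.7 (SD, n = 4) for PBS, 381 ± 93.6 for SE and 1496 ± 694 for GLA-SE.

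Irf1, the transcription factor, was counted at 2756, 1659, 1784 and 2503 in PBS replicates 1 to 4. On the reference scale the SE tumors were close to one another, at 2559.8, 2287, 2273 and 2558. The GLA-SE tumors were at 3736, 4761, 6497 and 4813. All 4 SE tumors fell inside the range of the PBS tumors, and all 4 GLA-SE tumors lay above both groups. The means were 2176 ± 537 for PBS, 2419 ± 161 for SE and 4952 ± 1143 for GLA-SE (SD, n = 4). The closeness of the SE tumors depends on the scale. Their deposited counts were 3843, 2237, 1825 and 1268, and with panel median scaling they ran from 1291 to 4739.

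Irgm2, the immunity-related GTPase, was at 381, 265, 249.9 and 335 in PBS replicates 1 to 4 and at 293, 240.3, 338 and 482 in SE replicates 1 to 4. In the GLA-SE tumors it was at 642, 1294, 549 and 749. Replicate 4 of the SE group was the nearest to the GLA-SE tumors, and the other 3 SE tumors lay among or just below the PBS tumors. The means were 308 ± 61.2 for PBS, 338 ± 104 for SE and 808 ± 334 for GLA-SE (SD, n = 4).

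Socs1, the feedback inhibitor, was at 527, 262, 365 and 412 in PBS replicates 1 to 4 and at 545, 380.3, 506 and 452 in SE replicates 1 to 4. The GLA-SE tumors had 740.2, 1075, 1698 and 1101. Replicate 1 was the highest tumor of both the SE and the PBS group, and the lowest GLA-SE tumor, also numbered 1, was above both. The means were 391 ± 110 for PBS, 471 ± 71.3 for SE and 1154 ± 398 for GLA-SE (SD, n = 4).

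**Figure D1:**
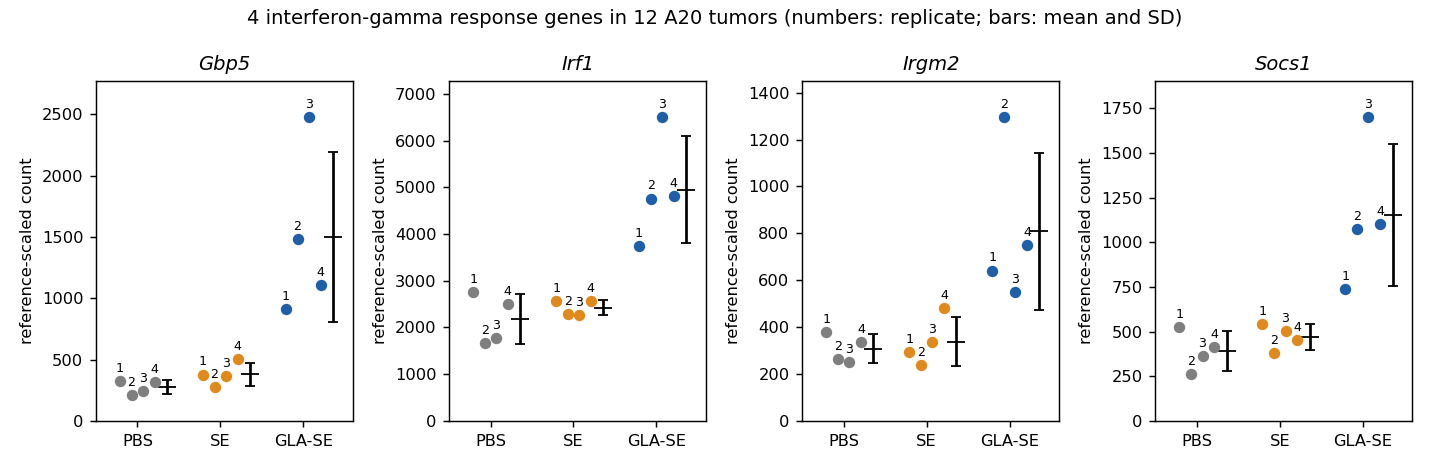
Reference-scaled counts of Gbp5, Irf1, Irgm2 and Socs1 (linear axes from 0) in each PBS, SE and GLA-SE tumor, with replicate numbers beside the points and the group mean and SD (n = 4) as black bars. For each gene the lowest GLA-SE tumor lies above all SE and PBS tumors, as for Gbp5, where it is at 915 against 504 for the highest SE tumor.

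For each gene the order of the group means was GLA-SE, SE, PBS. SE and PBS, which are neighbors in this order, overlapped for each gene and their difference was called for none, while GLA-SE was apart from SE in every tumor. The overlap depends on the scale. With each tumor scaled to its panel median, only Gbp5 kept the GLA-SE tumors (694 to 1286) apart from the PBS tumors (393 to 479), and none of the 4 genes kept them apart from the SE tumors. In the deposited counts without rescaling, GLA-SE was apart from PBS for all 4 genes and from SE for Gbp5, Irf1 and Irgm2, whereas Socs1 in GLA-SE replicate 1 (765) was below SE replicate 1 (818).

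Against PBS, the log2 fold change in the GLA-SE tumors was 2.45 for Gbp5 (standard error 0.32), 1.56 for Socs1 (0.29), 1.39 for Irgm2 (0.28) and 1.19 for Irf1 (0.22), which correspond to 5.46, 2.95, 2.63 and 2.28 times the PBS level. After the panel median was subtracted, 1.55, 0.66, 0.49 and 0.29 log2 remained for Gbp5, Socs1, Irgm2 and Irf1. Gbp5 ranked 39 among the 750 tested genes, whereas Socs1 ranked 146, Irgm2 192 and Irf1 270. All 4 genes were called higher by edgeR's quasi-likelihood test, as were 68.4% of the 750 genes, and all 4 had groups that did not overlap, as did 63.7%. Genes called lower made up 0.4% of the panel and included none of the 4. Over 21 alternative settings the position relative to the panel median stayed above 0, within 1.34 to 1.69 log2 for Gbp5, 0.55 to 0.78 for Socs1, 0.18 to 0.79 for Irgm2 and 0.21 to 0.50 for Irf1. The unshifted difference of Irf1 was -0.10 with panel median scaling, and the number of these genes called was then 1. Without GLA-SE replicate 3, the tumor with the highest Gbp5, Irf1 and Socs1, the log2 fold changes were 2.10 for Gbp5, 1.31 for Socs1, 1.54 for Irgm2 and 1.03 for Irf1.

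SE alone was compared with PBS to see what the emulsion did without GLA. The log2 fold changes were 0.48 for Gbp5 (standard error 0.25), 0.27 for Socs1 (0.24), 0.15 for Irf1 (0.18) and 0.13 for Irgm2 (0.27), and all 4 lay below the panel median of 0.51. This position is not stable, since over the 21 alternative settings it ran from -0.18 to 0.11 log2 relative to the panel median for Gbp5 and from -0.47 to 0.09 for Socs1, and both were above it with panel median scaling (0.10 and 0.01) and without SE replicate 4 (0.11 and 0.09), Gbp5 also in several other settings such as TMM (0.05) and the replicate block (0.08). Irf1 and Irgm2 stayed below it, at -0.53 to -0.07 and -0.46 to -0.25. None of the 4 was called and none had groups that did not overlap, beside 0% of the panel called higher and 8% not overlapping. The edgeR count of 0 called genes goes with 134 genes at an unadjusted p under 0.05, while DESeq2 with the same scaling called 53 genes and limma called 0, and none of the 3 tools called one of these 4 genes. The sign of these small differences depends on the scale: with quantile normalization all 4 were below 0, and with panel median scaling, TMM, no rescaling or DESeq2's own size factors only Gbp5 stayed above it. Without SE replicate 4 the value of Gbp5 was 0.31 and that of Irgm2 turned to -0.08.

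Against SE, the GLA-SE tumors had log2 fold changes of 1.97 for Gbp5 (standard error 0.35), 1.29 for Socs1 (0.28), 1.26 for Irgm2 (0.34) and 1.03 for Irf1 (0.19), or 3.93, 2.45, 2.39 and 2.05 times the SE level. The panel median was 0.25 here, so the 4 genes lay 1.73, 1.05, 1.01 and 0.79 log2 above it, at ranks 30, 74, 80 and 114 of 750. Gbp5 and Irf1 were called higher by edgeR, beside 2.13% of the panel, and all 4 genes had groups that did not overlap, beside 14.7%. Comparisons that share a control group are not independent, and each is given for its own tumors. The number of these genes called was 4 without SE replicate 4, 3 without GLA-SE replicate 1, and 0 without GLA-SE replicate 2 or 4 or without SE replicate 1, 2 or 3, while all 4 fold changes stayed above 0 in each case. DESeq2 with the reference scaling and a single fit of all 12 tumors each called all 4, DESeq2 with its own size factors called 1, and panel median scaling, quantile normalization, TMM and the replicate block called 0, again with all 4 fold changes above 0.

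**Figure D2:**
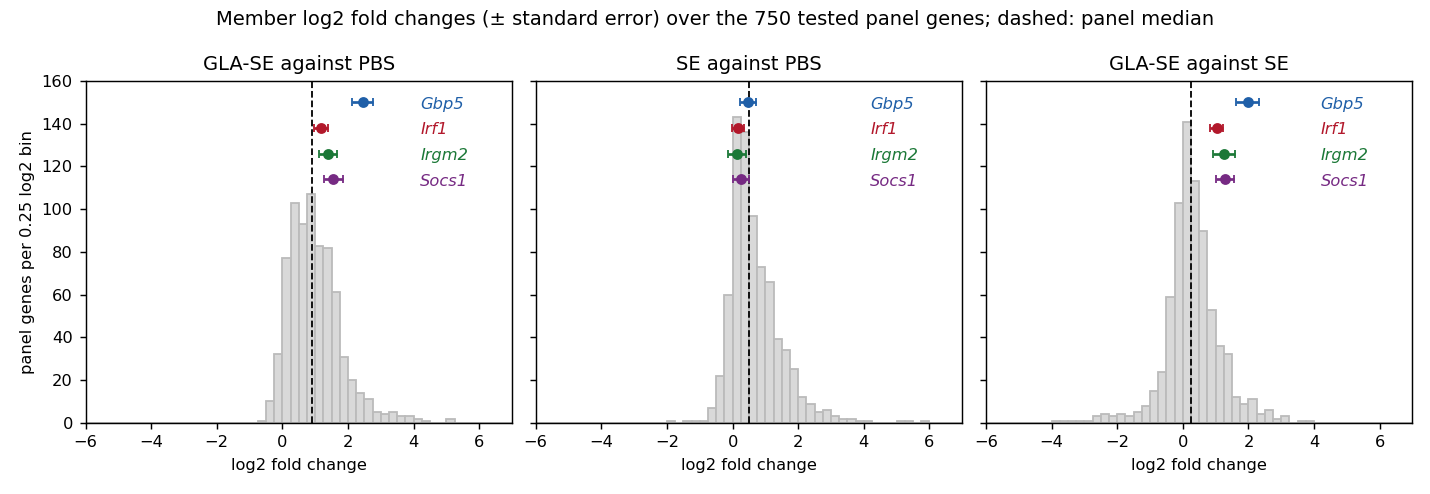
Distribution of log2 fold changes over the 750 tested genes (gray bars, genes per 0.25 log2) in the 3 comparisons, with the 4 genes drawn above it as points with their standard errors and the panel median as a dashed line. The 4 points lie to the right of the dashed line in GLA-SE against PBS (median 0.90) and GLA-SE against SE (median 0.25) and to its left in SE against PBS (median 0.51).

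The 4 genes did not rank the GLA-SE tumors alike. Replicate 3 was highest for Gbp5, Irf1 and Socs1, and replicate 1 was lowest for these 3 genes. For Irgm2, replicate 3 was the lowest of the group, at 549, and replicate 2 the highest, at 1294. Expressed as log2 over the PBS mean, Gbp5 exceeded Irf1 by 0.87 to 1.60 in every GLA-SE tumor (mean 1.19 ± 0.33, SD, n = 4), whereas in the PBS tumors the 2 genes differed by -0.09 to 0.12 (mean 0.01 ± 0.08). Gbp5 exceeded Irgm2 by 0.37 in the closest GLA-SE tumor and by 2.34 in the farthest. In PBS tumors the 4 genes kept together on the reference scale, with replicate 1 the highest for each of them and replicate 4 the next. This order depends on the scale. In the deposited counts replicate 4 was above replicate 1 for Gbp5 (398 against 344), Irf1 (3149 against 2908) and Irgm2 (421 against 402). For Socs1 replicate 1 stayed the highest (556 against 518). Within the GLA-SE group the coefficient of variation was 46.3% for Gbp5, against 20.7% in the PBS group.

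**Figure D3:**
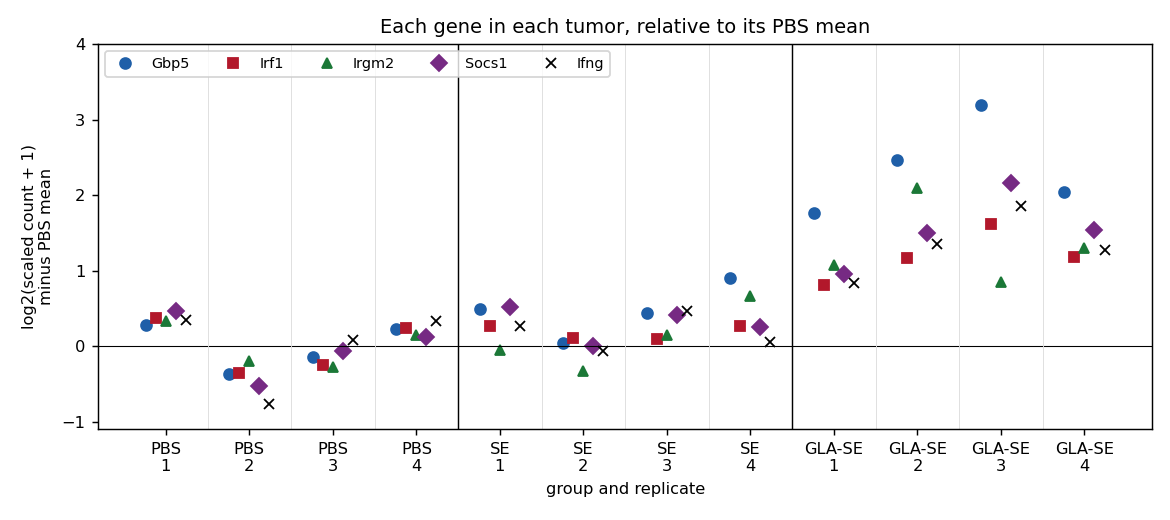
Log2(scaled count + 1) minus the PBS mean for the 4 genes and for Ifng in each of the 12 tumors, grouped by treatment and replicate. In GLA-SE replicate 3 Irgm2 (green triangle) is below the other 4 genes, while Gbp5 (blue circle) is the highest gene in all 4 GLA-SE tumors.

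The ligand and its signaling chain were read from Ifng, Ifngr1, Jak1 and Jak2. Ifng, the cytokine itself, was counted at 27.5, 12.1, 22.7 and 27.0 in PBS replicates 1 to 4, at 26.0, 20.4, 29.9 and 22.2 in SE tumors and at 38.7, 56.2, 79.5 and 53.2 in GLA-SE tumors. On the reference scale all GLA-SE tumors were above the others, although the counts are small. Of the 750 genes, 63.7% were likewise higher without overlap against PBS and 14.7% against SE. In the deposited counts the separation from SE was narrow, with GLA-SE replicate 1 at 40 and SE replicate 1 at 39. The mean of Ifng rose from 22.3 ± 7.13 in PBS to 56.9 ± 16.9 in GLA-SE tumors (SD, n = 4). The log2 fold change was 1.34 (standard error 0.31, edgeR adjusted p = 0.00602). The receptor chain Ifngr1 rose by 0.62 log2 (edgeR adjusted p = 0.000672), Jak1 by 0.80 (adjusted p = 0.00123) and Jak2 by 1.44 (adjusted p = 0.00353). All 4 genes read here were called higher in GLA-SE against PBS, as were 68.4% of the panel. Their median was 1.07 log2 beside 0.90 for the panel. DESeq2 with its own size factors called 1 of them, and panel median scaling, quantile normalization and TMM called 0. In SE against PBS edgeR called none of the 4 and 0 had an unadjusted p under 0.05, and Ifng had a log2 fold change of 0.14 (adjusted p = 0.765). In GLA-SE against SE none of the 4 was called either, and 1 had an unadjusted p under 0.05, beside 139 of the 750 genes. The value for Ifng was 1.20 with an adjusted p of 0.098. DESeq2 with the reference scaling called 1 of the 4 in GLA-SE against SE.

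The list upstream of Ifng holds the interleukin 12 subunits Il12a and Il12b, Il18, the receptor chains Il12rb1, Il12rb2 and Il18r1, and the transcription factors Stat4 and Tbx21. All 8 were called higher in GLA-SE against PBS, as were 68.4% of the panel. Their median was 1.50 log2 beside 0.90 for the panel. Panel median scaling, quantile normalization, TMM and DESeq2's own size factors called 0, 1, 2 and 3 of them and a single fit of all 12 tumors 5. The receptor chains rose by 1.63 for Il12rb1 (edgeR adjusted p = 0.000428), 2.21 for Il12rb2 (adjusted p = 0.00734) and 1.23 for Il18r1 (adjusted p = 0.00762). Stat4, which transmits the interleukin 12 signal, rose by 1.35 (adjusted p = 0.0119), and Tbx21, the T-bet gene, by 1.18 (adjusted p = 0.011). The 2 interleukin 12 subunits rested on 1 tumor. Il12b was at 898 in GLA-SE replicate 3 and at 58.3 to 59.3 in the other 3 GLA-SE tumors, beside 29.2 to 66.3 in PBS tumors, and Il12a was at 246 against 46.8 to 66.8. With this tumor left out, Il12b was at 0.47 log2 (adjusted p = 0.20) and Il12a at 0.54 (adjusted p = 0.111), and neither was called. Il18, by contrast, was at 391 and 526 in SE replicates 3 and 4, within or above the GLA-SE range of 165 to 399, and its GLA-SE against SE difference was 0.08 (adjusted p = 0.975). With all tumors edgeR called none of the 8 in either comparison that involves SE, where 2 (SE against PBS) and 3 (GLA-SE against SE) had an unadjusted p under 0.05. Over the 750 genes these numbers were 134 and 139. DESeq2 with the reference scaling called 1 in each, a single fit of all 12 tumors 1 and the counts without rescaling 2 in GLA-SE against SE, and Stat4 and Tbx21 were called in GLA-SE against SE without SE replicate 4 (adjusted p = 0.027 and 0.0318).

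A list of 33 other genes that interferon gamma induces was read in the same fits. In GLA-SE against PBS, 32 of 33 were called higher, beside 68.4% of the panel, and none lower. The list median was 1.16 log2 beside 0.90 for the panel, and 26 of 33 were above the panel median. The 3 with the largest differences were Cxcl11, a chemokine for activated T cells, Nos2, the inducible nitric oxide synthase, and Fcgr1, a high-affinity IgG receptor. Cxcl11 rose from 152 ± 43.1 to 1169 ± 378 (SD, n = 4; log2 2.94, standard error 0.29, adjusted p = 0.000188). Nos2 rose by 2.74 (adjusted p = 0.00675), or by 1.63 without GLA-SE replicate 3 (adjusted p = 0.00106), and Fcgr1 rose by 2.62 (adjusted p = 0.000154). In SE against PBS edgeR called none of the 33, and 12 had an unadjusted p under 0.05, beside 134 of the 750 genes. DESeq2 with the reference scaling called 7 higher, beside 47 of the panel. The list median was 0.37, below the panel median of 0.51. In GLA-SE against SE all 33 lay above the panel median. Of these, 4 were called higher and 22 had groups that did not overlap, beside 2.13% and 14.7% of the panel. These 4 are Cxcl11 together with Cxcl9, Cxcl10 and Gbp2b, named here after their values were seen, of which the first 3 are the chemokine ligands of the receptor CXCR3. The number was 11 without SE replicate 4, 1 without GLA-SE replicate 2 or 4, 2 without SE replicate 2 and 0 without SE replicate 3. With panel median scaling 6 of 33 were called higher in GLA-SE against PBS.

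Genes of the 2 neighboring pathways were read in the same fits. Of 23 type I interferon genes 22 were called higher in GLA-SE against PBS, beside 68.4% of the panel, with a median of 1.52 log2. Panel median scaling and quantile normalization called 4 and 7. The largest were Oasl1 with 4.09 (edgeR adjusted p = 0.00252), Rsad2 with 2.70 (adjusted p = 0.000701) and Isg15 with 2.19 (adjusted p = 0.00112), which encode an antiviral protein of the oligoadenylate synthetase family, viperin and a ubiquitin-like modifier. Without GLA-SE replicate 3 the value of Oasl1 was 2.84 (adjusted p = 0.000339). In SE against PBS edgeR called none of the 23, and 6 had an unadjusted p under 0.05, beside 134 of the 750 genes. The median of the 23 was 0.85 and 18 were above the panel median of 0.51. DESeq2 with the reference scaling called 2 of the 23 there. In GLA-SE against SE 1 of the 23 was called higher (Zbp1, named after its value was seen). There 3 had groups that did not overlap, and the panel shares were 2.13% called higher and 14.7% not overlapping. The median of the 23 was 0.62. The number called was 3 without SE replicate 4 and 0 without any other single tumor of the 8.

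Among 8 NF-kB genes 5 were called higher in GLA-SE against PBS, a share below the 68.4% of the panel. The median of 0.63 was below that of the panel (0.90). Tnfaip3 and Nfkbia, which encode inhibitors of NF-kB, rose by 1.86 (edgeR adjusted p = 0.00788) and 1.51 (adjusted p = 0.0123), and Relb, a subunit, rose by 0.81 (adjusted p = 0.00675). Without GLA-SE replicate 3 these values were 1.09, 0.84 and 0.57, each still called. The number called was 3 without PBS replicate 2, 3 or 4, in a single fit of all 12 tumors or with the replicate block, 2 without rescaling, 1 with DESeq2's own size factors and 0 with panel median scaling, quantile normalization or TMM. With edgeR, none of the 8 was called in SE against PBS or in GLA-SE against SE. There 1 and 2 had an unadjusted p under 0.05, beside 134 and 139 of the 750 genes. DESeq2 with the reference scaling called 1 in SE against PBS.

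**Figure D4:**
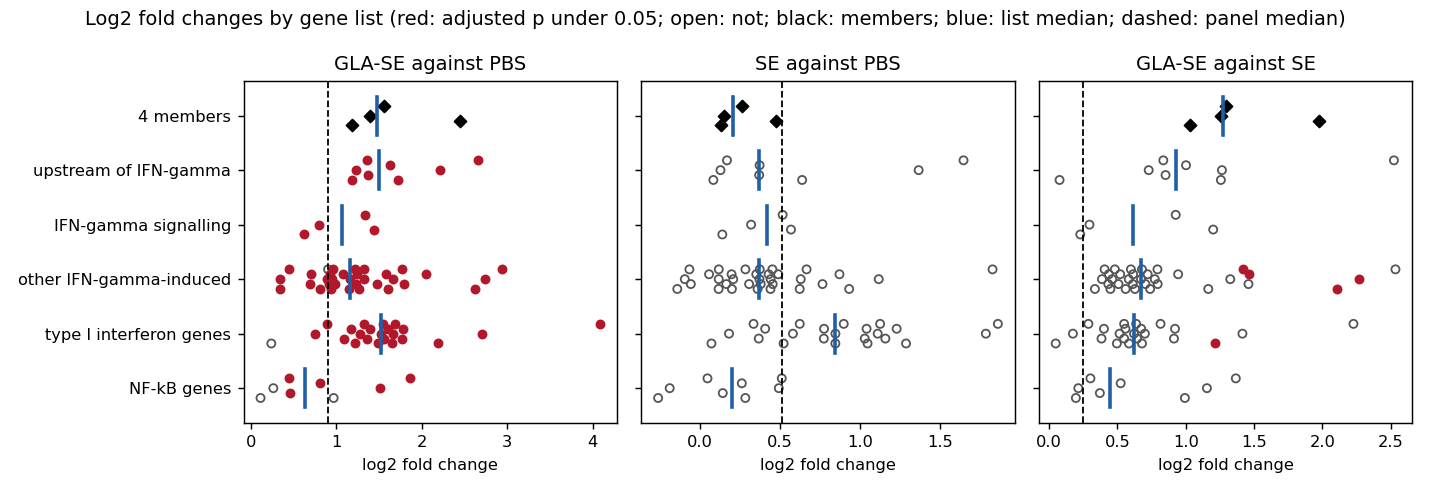
Log2 fold change of each gene of the 5 lists and of the 4 followed genes (rows) in the 3 comparisons (panels), with list medians in blue, the panel median dashed, called list genes in red and list genes that were not called open. In SE against PBS edgeR calls no gene and the type I interferon list (median 0.85) lies to the right of the interferon-gamma-induced list (median 0.37).

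The profiles of single genes over the 12 tumors were compared by the root mean square difference of log2(scaled count + 1) after each gene was centered on its PBS mean, over 673 genes with a mean of at least 20. Ifng, at 0.22 log2, and Tmem173, the STING gene, at 0.23, were among the 3 genes nearest to Irf1, where the median distance to all genes was 0.69. Socs1 was closest to Ifng at 0.19, Cd274 (PD-L1) at 0.20 and Irf4 at 0.25, with a median of 0.79. Irgm2 was closest to Gbp2b, another guanylate-binding protein gene, at 0.25, the chemokine gene Ccl12 at 0.26 and Pdcd1lg2 (PD-L2) at 0.28, with a median of 0.73. Gbp5 had no neighbor as close, and its nearest were Mefv, the pyrin gene, at 0.32, Isg15 at 0.35 and the chemokine receptor gene Ccr1 at 0.36, with a median of 1.06. Of the 4 genes, Irf1 and Socs1 were the most alike pair at 0.26, and Gbp5 and Irgm2 the least alike at 0.78. These distances share tumors and scaling factors and carry no test. Without the SE tumors 1 of the 3 nearest genes was retained for Gbp5 and Socs1 and 2 for Irgm2. Ifng was then at rank 7 for Socs1, and neither Ifng nor Tmem173 was among the 10 genes nearest to Irf1. With 10 added to the scaled counts in place of 1, Ifng was not among the 10 genes nearest to Socs1, but stayed at rank 2 for Irf1. The names thus depend on which tumors are compared and on the number added.

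Markers of host cells were read beside the 4 genes. The summed scaled count of 8 monocyte and macrophage markers was 28968 to 37189 in PBS tumors, 24190 to 106492 in SE tumors and 83355 to 124449 in GLA-SE tumors. Lyz2 made up most of this sum, with means of 29229 in PBS, 50291 in SE and 83722 in GLA-SE tumors. All 8 markers were called higher in GLA-SE against PBS, beside 68.4% of the panel. The 4 NK cell markers summed to 234 to 597 in PBS, 271 to 752 in SE and 882 to 1010 in GLA-SE tumors. In GLA-SE against PBS 3 of 4 were called higher, beside the same 68.4%. The 8 T cell markers summed to 1259 to 3189, 1115 to 8781 and 4011 to 5367, with 5 of 8 called higher, a share below the 68.4% of the panel. The 5 neutrophil markers summed to 178 to 197, 144 to 1087 and 790 to 8985, with 3 of 5 called higher, again below that share. Ltf and Camp were below a mean of 20 in every group. The highest neutrophil sum was in GLA-SE replicate 3, where S100a8 made up 7805 of 8985. The 7 endothelial and fibroblast markers summed to 3890 to 9001, 3332 to 118712 and 17897 to 26121, and all 7 were called higher, beside 68.4% of the panel. Of the 6 B-cell markers 2 were called lower, beside 0.4% of the panel, and none higher. No panel gene was at 0 in any tumor, the lowest count being 1, so a count above 0 does not by itself show that a marker is present. The part of these cells in the differences of Gbp5, Irf1, Irgm2 and Socs1 was not tested.

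Host-cell markers and the 4 genes can be set side by side in single SE tumors. All values here are on the reference scale, where the counts of SE replicate 4 were divided by 0.496. In the GLA-SE tumors this factor was 0.906 to 1.03. Whether the monocyte and macrophage sum of SE replicate 4 reaches the GLA-SE range depends on that scale. SE replicate 4 had sums of 106492 for monocyte and macrophage markers, 8781 for T cell markers and 118712 for endothelial and fibroblast markers, within or above the range of the GLA-SE tumors, and SE replicate 3 had a monocyte and macrophage sum of 72656, between the highest PBS tumor and the lowest GLA-SE tumor, with a T cell sum of 2713 inside the PBS range. In these 2 tumors Gbp5 was at 504 and 365, Irf1 at 2558 and 2273, Irgm2 at 482 and 338 and Socs1 at 452 and 506. Each of these values was below the lowest GLA-SE tumor of the same gene, which was 915, 3736, 549 and 740.2. Single genes carried much of the 3 sums given above for SE replicate 4, with Lyz2 at 89138, Thy1 at 3956 and Col3a1 at 90245. The sum of NK cell markers in SE replicate 4 was 752 and Ifng was at 22.2, both below every GLA-SE tumor. These 2 tumors were picked for their marker sums after the values were seen, and the part of host cells in the differences was not tested.

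**Figure D5:**
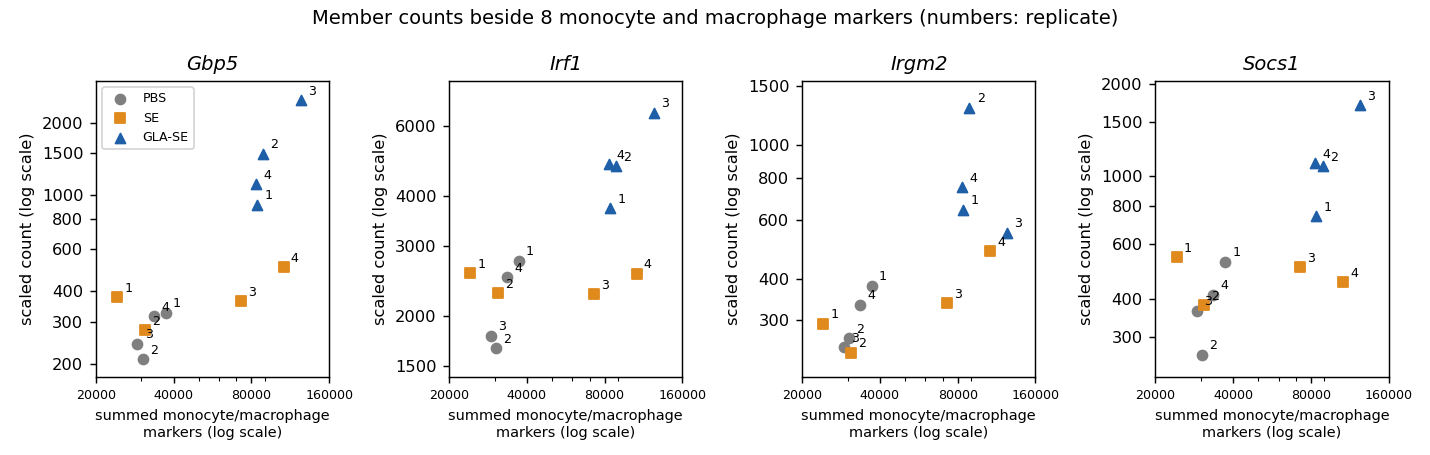
Scaled count of each of the 4 genes (vertical, log scale) against the summed scaled count of 8 monocyte and macrophage markers (horizontal, log scale) in the 12 tumors, with replicate numbers beside the points. Most of the marker sum is Lyz2. On the reference scale used here, SE replicate 4, with a marker sum of 106492, lies within the horizontal range of the GLA-SE tumors and below all of them on the vertical axis.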

How the data were processed

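RNA from 12 tumors was hybridized to barcoded nCounter probes (mouse PanCancer Immune Profiling Panel). The authors deposited 1 table of whole-number counts for 770 genes. Totals and reference genes differ between tumors, so these counts were treated as not normalized, although the methods describe normalization in nSolver. Of 20 reference genes the geNorm procedure kept 16 over all tumors, and each tumor was scaled to their geometric mean. The other 750 genes were compared between 4 and 4 tumors with edgeR 4.0.16 (quasi-likelihood) in R 4.3.3, Benjamini-Hochberg adjustment and a threshold of 0.05, without a filter or covariates, after a test on simulated data. Totals were 810260 to 1612415, and precision is limited by 4 tumors a group and, for low genes such as Ifng, by the count. Alternatives used limma 3.58.1, DESeq2 1.42.0, other scalings, a filter of 20 counts, 1 fit of all tumors, a replicate block and leaving out each tumor.

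The 4 genes, the gene lists and the marker lists were chosen with earlier results of these data known. Named genes are the 4 genes, the 3 nearest profiles of each, the upstream and signaling lists, and the 3 genes of each other list with the largest called difference in GLA-SE against PBS, a mean of at least 20 and no overlap. Others are said to be chosen later, and 2 genes of these lists are not reported here. Promoter windows come from RefSeq on GRCm38.p6 and were available for 566 of the 770 panel genes. In the RefSeq gene annotation 754 of 770 symbols matched, with 8 more by synonym. Plots used matplotlib 3.10.9 (Python 3.11.15).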

Additional observations from a re-analysis of the deposited data

Results flagged for a closer look

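Among 75 groups of 4 tumors searched for a single tumor far from the other 3 (Dixon's test, in which chance flags about 5%, or 3.75 of 75), 12 were found, and none was a group of Gbp5, Irf1, Irgm2 or Socs1. The 5% holds for independent groups picked without their values. Some of these genes were picked for a large difference in GLA-SE against PBS, so 12 cannot be read against 3.75. In 10 of them the tumor was GLA-SE replicate 3. There Il12b was at 898 (other GLA-SE tumors 58.3 to 59.3), Il12a at 246 (46.8 to 66.8), Nos2 at 1456 (181 to 334) and Oasl1 at 1504 (156 to 347). Isg15 was at 1555 (515 to 625), Tnfaip3 at 2737 (628 to 817), Nfkbia at 4483 (1132 to 1544) and Relb at 1958 (1035 to 1189). Jak1 was at 3702 (2533 to 2718), and Fcgr1 was the one gene that was low in this tumor, at 485 (699.6 to 739.8). The other 2 were Il12rb2 in PBS replicate 1, at 27.5 (9.34 to 11.9), and Stat4 in SE replicate 4, at 145 (33.7 to 41.1). All are scaled counts. The genes of GLA-SE replicate 3 share 1 tumor and are not separate events.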

How the results depend on the processing

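Reference-gene choice, the filter of 20 counts and both limma pseudocounts kept the number of called genes in every comparison within 1.5 times and each fold change of the 4 genes within its spread. In GLA-SE against PBS, where 513 genes were higher and 3 lower, panel median scaling gave 61 higher and 307 lower, quantile normalization 116 and 164 (280 in all), TMM 185 and 143 (328), and DESeq2 with its own size factors 190 and 152 (342), while 1 fit of all 12 tumors called 255. Under panel median scaling, quantile normalization, TMM and DESeq2 with its own size factors, the log2 fold change was 1.11, 1.45, 1.61 and 1.56 for Gbp5, -0.10, 0.45, 0.38 and 0.33 for Irf1, 0.15, 0.35, 0.62 and 0.58 for Irgm2, and 0.26, 0.61, 0.74 and 0.69 for Socs1. The interferon-gamma-induced genes called were then 6, 14, 16 and 15 of 33, and 1, 3, 2 and 2 of the 4 genes were called. These 4 settings lowered the panel median from 0.90 to between -0.40 and 0.10 log2, and the cause of the other differences was not tested.

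In SE against PBS, DESeq2 called 53 genes with the reference scaling (7 of them interferon-gamma-induced) and 9 with its own. With panel median scaling, quantile normalization, TMM, no rescaling and DESeq2's own size factors, Gbp5 was at 0.065, -0.042, 0.11, 0.089 and 0.10, Irf1 at -0.13, -0.18, -0.13, -0.16 and -0.13, and Irgm2 at -0.33, -0.37, -0.27, -0.29 and -0.28. Socs1 was at -0.29 with quantile normalization.

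In GLA-SE against SE the 16 called genes became 0 with panel median scaling or quantile normalization, 3 with TMM, 89 without rescaling, 108 with DESeq2 and the reference scaling, 72 with its own, and 79 in 1 fit of all tumors. Beside the count of 0, 208 and 105 genes had an unadjusted p under 0.05. Interferon-gamma-induced genes called were 0 with panel median scaling, quantile normalization or TMM, 8 without rescaling, 18 with DESeq2 and 14 in 1 fit. Gbp5 was at 1.05 with panel median scaling and 1.40 with DESeq2's own size factors. With panel median scaling, quantile normalization, TMM and DESeq2's own size factors, Irf1 was at 0.034, 0.63, 0.52 and 0.41 and Socs1 at 0.28, 0.90, 0.76 and 0.65, and with the first 2 Irgm2 was at 0.48 and 0.72.

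Leaving out 1 tumor at a time gave 443 to 504 called genes in GLA-SE against PBS, 0 in SE against PBS and 4 to 105 in GLA-SE against SE, of which 105 came without SE replicate 4 and 4 without GLA-SE replicate 2, GLA-SE replicate 4 or SE replicate 3, with 9 without SE replicate 1 and 7 without SE replicate 2. Interferon-gamma-induced genes called in GLA-SE against SE ranged from 0 to 11. Fold changes of the 4 genes kept their sign except Irgm2 in SE against PBS (-0.08 to 0.27).

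Replicate numbers are shared by the groups but were not treated as pairs: deviations of same-numbered tumors correlated at -0.13 to 0.13 in GLA-SE and PBS, -0.13 to 0.19 in SE and PBS and -0.25 to 0.15 in GLA-SE and SE, and in these 3 comparisons 2, 1 and 1 of 4 tumors correlated best with their own number. With the number as a replicate block, 439 genes were called in GLA-SE against PBS, 0 in SE against PBS and 0 in GLA-SE against SE, where none of the interferon-gamma-induced genes (0) was called and 132 genes had an unadjusted p under 0.05.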
